A study of Homo sapiens with 9 samples.

Results

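The genes described here make cholesterol and fatty acids or control their supply. They were chosen by symbol: 36 listed symbols, each with a single row in both deposited tables, which list 36119 loci for the knockout set and 35856 for the treatment set. Of the 36 genes, 35 had a value in all 9 libraries, and HSD17B7 had none in the treatment table. They fell into 7 enzymes of the mevalonate steps, 11 enzymes from squalene to cholesterol, 5 genes of sterol sensing, 2 of sterol transport, 8 of fatty acid synthesis and 3 that respond to the liver X receptors (LXR) or export sterol. The enzymes of the first 2 groups are called the 18 sterol enzymes.

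RNA was sequenced from NB4, a cell line of human acute promyelocytic leukaemia with the PML-RARA fusion, which matures when given retinoic acid (RA). The treatment set has 1 library for each of 5 treatments of 24 h: DMSO (the vehicle), the LSD1 inhibitor MC_2580, RA at the doses 0.01 uM and 1 uM, and MC_2580 together with the lower RA dose, here called the combination. LSD1, the product of KDM1A, removes methyl groups from histone H3. In the knockout set, 2 libraries came from untreated LSD1 KO NB4 cells and 2 from untreated wild-type (WT) NB4 cells. The labels give neither the dose of MC_2580, nor how the knockout was made or from how many clones, nor whether the 2 replicates were separate cultures, so p-values cover only the spread between these libraries.

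Cells make cholesterol from acetyl-CoA through mevalonate, farnesyl diphosphate, squalene and lanosterol. When membranes run low in sterol, the escort protein SCAP carries the SREBP transcription factors to the Golgi, where they are cut and released to switch on sterol and fatty acid enzymes; INSIG proteins hold SCAP back when sterol is plentiful. SREBF1 encodes the SREBP form more tied to fatty acid genes and is itself an LXR target, while SREBF2 encodes the form more tied to cholesterol genes.

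Values are FPKM, which are scaled for gene length and library size. Between 11974 and 13365 loci reached 1 FPKM per library. The depth of the libraries is unknown, so no counting interval was computed. From the spacing of low values, the reads behind 1 FPKM, relative to WT 1, came to 1.03 for KO 1, 1.34 for KO 2 and 1.65 for WT 2, and, relative to DMSO, to 0.73 to 0.89 for the 4 treated libraries. The targeted gene KDM1A (listed as AOF2) stood at 14.0 and 16.8 FPKM in KO cells against 49.8 and 66.6 in WT cells, lower in both but not absent (log2 difference -1.84, SE 0.23, limma adjusted p = 0.158). Of the markers of promyelocytes, AZU1, PRTN3, CD33, RARA and PML were present in all 9 libraries and ELA2 was at most 0.24 FPKM. PRTN3 stood at 178 FPKM in DMSO, 762 and 966 at the lower and higher RA dose and 454 in the combination. It also differed widely between like libraries, with 90.8 and 313 FPKM in WT and 107 and 359 in KO. CD33, RARA and PML were highest in the combination, at 46.8, 24.0 and 40.5 FPKM against 32.0, 11.5 and 18.7 in DMSO. AZU1 stood at 93.6 FPKM in DMSO and 82.7 in the combination. MPO stood at 5301 FPKM in DMSO and 6518 in MC_2580 but at 2454 to 2873 in the 3 libraries with RA, and at 5200 to 5977 in the knockout set. CTSG stood at 58.6 FPKM in DMSO and 4.65 in the combination, and at 9.94 and 27.2 in KO against 47.9 and 111 in WT (log2 -2.07, limma adjusted p = 0.653). Of the T cell markers, CD4 lay at 24.7 to 79.7 FPKM and was highest in the 3 libraries with RA, CD8A reached 1.34 FPKM in WT and 0.262 in KO, and CD3E and CD28 were at most 0.25. The erythroid marker HBB and the B cell marker MS4A1 were listed at 0 throughout, and of the fibroblast markers COL1A1 reached 1.18 FPKM, under RA at 1 uM. The part of these marker changes in the members' values was not tested. In bulk RNA, fewer cells of a type and less RNA per cell cannot be told apart.

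The promoters of 31 of the 36 genes were found in RefSeq (GRCh38.p14), as 250 bases before and 50 after the start. Both strands were searched for the sterol regulatory element TCACNCCAC, the E-box CACGTG, the CCAAT box and the GC box GGGCGG; none of these letter strings contains another. The CCAAT box was in 12 of the 15 sterol enzyme promoters found (80.0%) and in 3 of 7 fatty acid promoters (42.9%), against 35.7% of all 27305 promoters and 37.3% of the 8281 found for protein-coding genes tested in the knockout set. The sterol regulatory element in this exact form was in 1 of 31, that of SREBF2, against 1.15% of all promoters. The E-box was in 5 of 31 (LSS, SC5DL, SCAP, INSIG1 and ABCA1) against 7.43% of all and 10.7% of the tested protein-coding genes. The GC box was in 29 of 31 against 44.6% of all and 71.2% of the tested protein-coding genes. A match is a string of letters, not a shown binding site.

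Below are the 150 bases before the start of 6 genes, read along the gene's own strand, with the sterol regulatory element, CCAAT box and E-box in capitals on either strand (ATTGG is CCAAT read from the other strand). HMGCS1 (chr5:43313413-43313562, minus strand), SC4MOL (named MSMO1 in RefSeq, chr4:165327519-165327668, plus strand) and INSIG1 (chr7:155297728-155297877, plus strand) are shown because each was the lowest of its group in the combination against DMSO. SREBF2 (chr22:41832955-41833104, plus strand) is shown for its sterol regulatory element, 133 bases before the start. SREBF1 (chr17:17836987-17837136, minus strand) and ABCA1 (chr9:104928156-104928305, minus strand) are shown because they were the members highest over DMSO under RA at 1 uM.
HMGCS1: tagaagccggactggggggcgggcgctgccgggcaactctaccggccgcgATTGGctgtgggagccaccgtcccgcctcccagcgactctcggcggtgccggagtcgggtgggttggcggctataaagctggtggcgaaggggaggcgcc
SC4MOL: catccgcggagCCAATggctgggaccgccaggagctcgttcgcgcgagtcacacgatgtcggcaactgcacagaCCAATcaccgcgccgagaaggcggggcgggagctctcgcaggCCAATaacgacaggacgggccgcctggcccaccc
INSIG1: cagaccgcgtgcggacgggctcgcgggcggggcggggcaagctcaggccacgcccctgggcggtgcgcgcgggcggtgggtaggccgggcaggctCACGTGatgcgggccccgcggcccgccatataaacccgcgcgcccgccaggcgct
SREBF2: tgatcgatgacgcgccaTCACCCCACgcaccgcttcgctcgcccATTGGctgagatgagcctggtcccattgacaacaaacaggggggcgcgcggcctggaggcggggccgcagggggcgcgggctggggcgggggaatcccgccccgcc
SREBF1: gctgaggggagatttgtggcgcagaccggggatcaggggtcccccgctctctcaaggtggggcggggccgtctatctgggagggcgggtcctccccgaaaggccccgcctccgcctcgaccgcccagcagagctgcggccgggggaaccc
ABCA1: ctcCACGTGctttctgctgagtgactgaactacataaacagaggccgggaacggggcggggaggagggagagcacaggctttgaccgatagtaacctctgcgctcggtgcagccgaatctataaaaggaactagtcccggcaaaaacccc
In these stretches SC4MOL had 3 CCAAT boxes, HMGCS1 and SREBF2 1 each, and SREBF1, INSIG1 and ABCA1 none. IDI1 and CYP51A1, which were also lower past 2-fold in the combination, had no CCAAT box in the whole 300-base window.

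The treatment libraries give the level of these genes after 24 h with the LSD1 inhibitor, RA or both. The sterol enzymes were lowest when the inhibitor and RA were given together. All 17 with values lay below DMSO in the combination, against 51.7% of protein-coding genes, with a median log2 difference of -0.55 where all loci had -0.02. All 17 also lay below RA at 0.01 uM alone (protein-coding genes 46.6%, median -0.54 against 0.03 for all loci), and 15 of 17 were lowest of the 5 libraries in the combination, against 30.5% of protein-coding genes. Log2 differences are of FPKM + 1, and with 1 library per treatment there is no replicate check and no test.

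Between WT 1 and WT 2 of the other set the difference was as large, but not between KO 1 and KO 2. The 18 sterol enzymes differed by a median of 0.71 between WT 1 and WT 2, whose median over all loci was -0.04, and by -0.09 between KO 1 and KO 2. Of the 17 enzymes, 8 differed more between the combination and DMSO than between either pair of like libraries, and 0 did so for MC_2580 alone or for RA at 0.01 uM. Among protein-coding genes found in both tables the shares were 46.8%, 17.8% and 36%, so the count for the combination was at the level of all such genes. The tables were normalized separately, so only the sizes of these ratios are set side by side. Whether the sterol enzymes vary in the same way between cultures given the same treatment was not tested.

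HMGCS1, which makes HMG-CoA and lies at chr5:43325250-43349352 (hg18), had the widest range among the mevalonate enzymes. It stood at 406 FPKM in DMSO, 286 in MC_2580, 249 and 216 at the lower and higher RA dose and 133 in the combination. Each treated library was thus below DMSO and the combination was 3.06-fold below it (log2 -1.61). For this gene WT 1 and WT 2 differed by 1.04, and KO 1 and KO 2 by 0.07. ACAT2, which joins acetyl-CoA units at the first step, went from 283 FPKM in DMSO to 210, 210, 192 and 134 in the same order (combination log2 -1.07). Its locus overlaps TCP1 and the library kit does not mark strand, so reads of the 2 genes may be mixed. IDI1, the isopentenyl diphosphate isomerase, stood at 99.0, 76.4, 69.2, 73.4 and 44.3 FPKM (combination log2 -1.14), beyond its difference of 0.78 between the WT libraries.

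The other mevalonate enzymes moved less. FDPS, the farnesyl diphosphate synthase, stood at 181 FPKM in DMSO, 132 in MC_2580, 160 and 141 in the lower and higher RA dose, and 110 in the combination. MVD, the mevalonate diphosphate decarboxylase, was at 75.6, 71.9, 80.0, 85.1 and 51.3 FPKM in that order and was lowest in the combination (log2 -0.55). MVK, the mevalonate kinase, had 42.7, 43.7, 37.4, 40.3 and 30.9 FPKM. PMVK, the next kinase, ran from 16.3 to 21.8 FPKM and was the 1 mevalonate enzyme whose lowest value was under RA at 1 uM rather than in the combination.

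Among the enzymes from squalene on, SC4MOL, a sterol C4 methyl oxidase (chr4:166468268-166483757, hg18), stood at 71.3 FPKM in DMSO, 48.2 in MC_2580, 49.1 and 47.4 at the lower and higher RA dose and 28.2 in the combination. The 3 single treatments lay close together, and the combination was 2.53-fold below DMSO (log2 -1.31). For SC4MOL WT 1 and WT 2 differed by 1.09, and KO 1 and KO 2 by 0.23. CYP51A1, the lanosterol demethylase, was likewise highest in DMSO and lowest in the combination, with 68.7 FPKM in DMSO, 55.2, 51.7 and 48.6 in the single treatments and 30.9 in the combination (log2 -1.13). For CYP51A1 the WT libraries differed by 1.10 and the KO libraries by 0.10.

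LSS, which closes the sterol rings to lanosterol (chr21:46432793-46473119, hg18), showed a flat profile until both agents were present: 41.5 FPKM in DMSO, 42.1 in MC_2580, 43.0 and 44.0 in the lower and higher RA dose, and 27.9 in the combination. Its combination difference of -0.55 exceeded the 0.26 between WT 1 and WT 2. DHCR7, which catalyses the last step to cholesterol, stood at 156, 135, 162, 174 and 97.9 FPKM, again lowest in the combination. EBP, the sterol isomerase, ran 229, 214, 264, 268 and 187 FPKM. FDFT1, the squalene synthase, was at 412 FPKM in DMSO and lower in every treated library (331, 365, 309 and 293), and SQLE, the squalene epoxidase, ranged only from 36.4 to 49.0. NSDHL, SC5DL and TM7SF2 were each lowest in the combination, at 28.6, 11.7 and 8.10 FPKM against 40.8, 16.6 and 12.5 in DMSO.

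**Figure D1:**
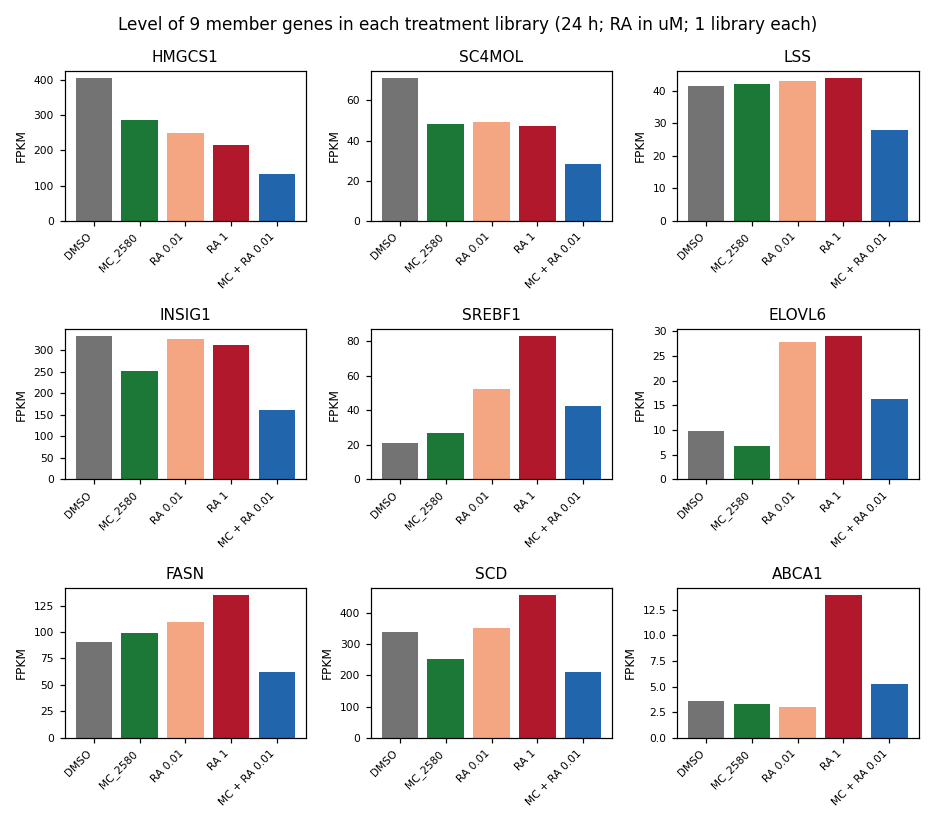
FPKM (y axis, from 0) of 9 member genes in the 5 treatment libraries (DMSO, MC_2580, the 2 RA doses, and MC_2580 with the lower RA dose), 1 bar per library with no error. HMGCS1, SC4MOL, LSS, INSIG1, FASN and SCD have their lowest bar in the combination. LSS, SREBF1, ELOVL6, FASN, SCD and ABCA1 have their highest bar at RA 1 uM.

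Sterol sensing genes split by gene. INSIG1, which retains SCAP in the endoplasmic reticulum and is itself an SREBP target (chr7:154720476-154732877, hg18), stood at 332 FPKM in DMSO, 251 in MC_2580, 325 and 313 in the lower and higher RA dose, and 160 in the combination. RA alone lay near DMSO (log2 -0.03 and -0.08), and the combination was 2.07-fold below DMSO (log2 -1.05) and 2.03-fold below RA at 0.01 uM (log2 -1.02). WT 1 and WT 2 differed by 1.23 for INSIG1, more than either, while KO 1 and KO 2 differed by 0.54. Its relative INSIG2 ranged from 12.1 to 15.7 FPKM, highest in DMSO.

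SREBF1 (chr17:17655794-17681050, hg18) went the other way. It stood at 21.1 FPKM in DMSO, 27.0 in MC_2580, 52.7 at RA 0.01 uM, 83.0 at RA 1 uM and 42.7 in the combination, so every treated library was above DMSO and the order followed the RA dose. The log2 differences were 0.34, 1.28, 1.93 and 0.98, against -0.28 between the WT libraries and -0.04 between the KO libraries. The combination lay below RA at 0.01 uM alone by -0.30. SREBF2 stood at 67.9, 74.4, 83.9, 94.6 and 82.5 FPKM in the same order, a smaller range with DMSO lowest. SCAP, the escort, stayed between 33.5 and 38.3 FPKM.

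Most of the 8 fatty acid synthesis members were highest under RA at 1 uM. There 7 of 8 lay above DMSO, with a median log2 difference of 0.61, where all loci had -0.04 and 53.5% of protein-coding genes lay below DMSO. For 6 of the 8 it was the highest of the 5 libraries, against 15.6% of protein-coding genes. Of 19 other fatty acid genes listed for these pathways, 7 were highest there and 8 lay below DMSO (median log2 0.25). The 8 genes differed by a median of 0.31 between WT 1 and WT 2, and 4 of 8 differed more between RA at 1 uM and DMSO than between either pair of like libraries, against 39% of protein-coding genes.

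ELOVL6, which lengthens C16 chains (chr4:111186451-111339258, hg18), stood at 9.87 FPKM in DMSO, 6.74 in MC_2580, 27.8 at RA 0.01 uM, 29.0 at RA 1 uM and 16.3 in the combination. Both RA doses were above DMSO (2.82-fold and 2.93-fold), and the combination lay between them and DMSO. ACACA, the acetyl-CoA carboxylase that makes malonyl-CoA, was higher at the higher RA dose, with 28.7 FPKM in DMSO, 26.0 in MC_2580, 38.8 and 52.8 at the RA doses and 30.8 in the combination. FASN, the fatty acid synthase, had 90.1, 98.7, 110, 135 and 62.2 FPKM, so that it was above DMSO in each single treatment and below it in the combination (log2 -0.53). SCD, the stearoyl-CoA desaturase, had 337, 252, 350, 457 and 211 FPKM and was likewise lowest in the combination.

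FADS2 and FADS1, desaturases of polyunsaturated chains, share 1 listed locus, so how reads were divided between them is uncertain. FADS2 had 183, 182, 261, 317 and 210 FPKM and FADS1 had 69.5, 64.6, 108, 109 and 76.3, both highest at RA 1 uM. ACLY, which supplies cytosolic acetyl-CoA from citrate, stayed between 100 and 129 FPKM, and ACSS2, which makes it from acetate, between 39.7 and 50.1, with its highest value in the combination.

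ABCA1, the sterol exporter (chr9:106583104-106730257, hg18), differed between the RA doses. It stood at 3.63 FPKM in DMSO, 3.30 in MC_2580, 3.03 at RA 0.01 uM, 14.0 at RA 1 uM and 5.30 in the combination. RA at 1 uM was the 1 library past 2-fold from DMSO (log2 1.69) and was 4.61-fold above RA at 0.01 uM (log2 1.89), where WT 1 and WT 2 differed by -0.65. MYLIP, the LXR target that marks the LDL receptor for breakdown, was also highest at RA 1 uM, with 33.8 FPKM against 16.5 in DMSO and 19.1 to 20.8 in the other treated libraries (log2 0.99 from DMSO). ABCG1 stayed at or below 0.0348 FPKM in the treatment set, under the 1 FPKM minimum. Of the transport genes, STARD4, which carries sterol in the cytosol, ranged from 12.7 to 22.0 FPKM and NPC1, which moves it out of lysosomes, from 9.44 to 12.8.

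**Figure D2:**
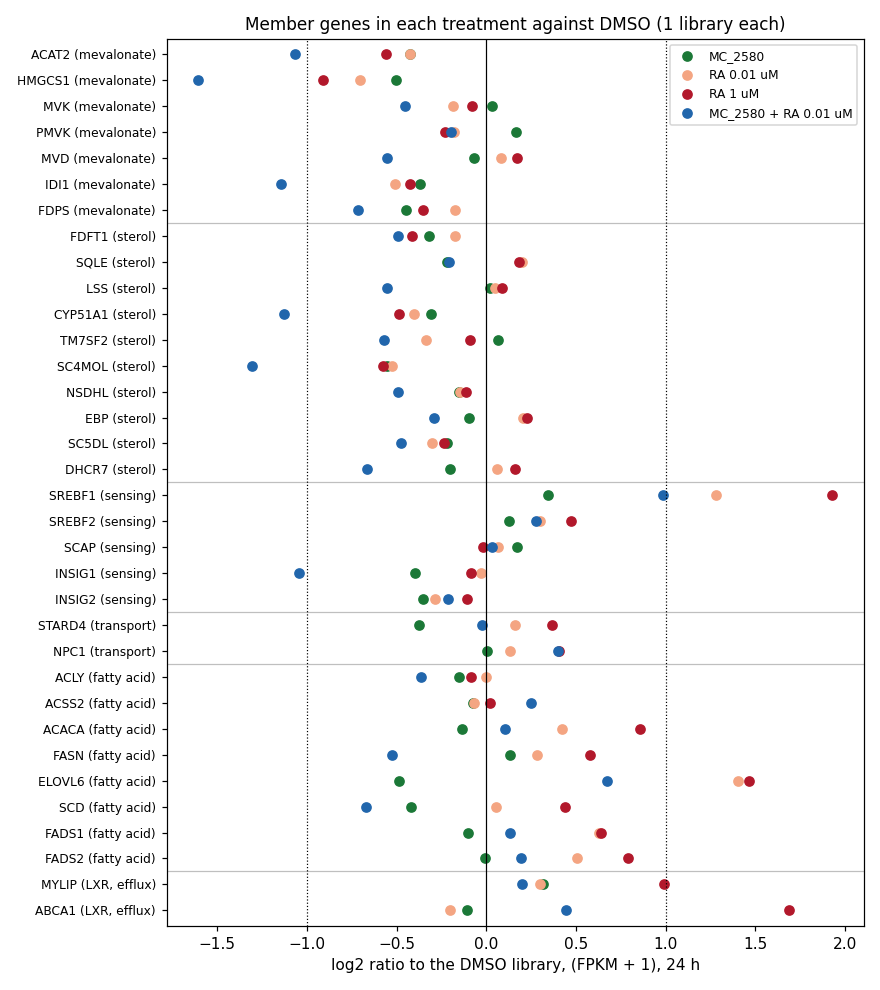
Log2 ratio to DMSO of FPKM + 1 (x axis) for the 34 member genes compared, 1 row per gene by role, with 1 point per treatment and dotted lines at 2-fold. The combination points of the mevalonate and sterol genes all lie left of 0, while most fatty acid genes have their RA 1 uM point furthest right.

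By the 2-fold rule, 34 members could be compared. MC_2580 alone had 0 higher and 0 lower, with 24 of 34 below DMSO. That compares with 2.22% of all loci higher and 1.73% lower, or 0.738% and 0.0104% of protein-coding genes, of which 53.8% lay below DMSO. RA at 0.01 uM had 2 members higher (SREBF1 and ELOVL6) and 0 lower, against 5.42% of loci higher and 3.99% lower (protein-coding genes 4.88% and 2.78%), and 12 of 17 sterol enzymes below DMSO against 58.4% of protein-coding genes. RA at 1 uM had 3 higher (SREBF1, ELOVL6 and ABCA1) and 0 lower, against 6.63% and 4.09% of loci (protein-coding 6.5% and 2.7%). At these doses the members' share past 2-fold was thus close to the share of all loci.

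The combination against DMSO had 6 of 34 members lower (ACAT2, HMGCS1, IDI1, CYP51A1, SC4MOL and INSIG1) and 0 higher, against 4.64% of loci lower and 9.05% higher (protein-coding 3.43% and 9.37%). SREBF1, at 0.98 on the FPKM + 1 scale, lay just short of 2-fold, though in FPKM it was 2.02-fold above DMSO. For 4 of these 6 genes WT 1 and WT 2 also differed past 2-fold. Between those like libraries 6 of 35 members did so (HMGCS1, CYP51A1, SC4MOL, INSIG1, INSIG2 and ACSS2), against 9.06% of loci and 3.79% of protein-coding genes, and between KO 1 and KO 2 0 members did, against 8.59% and 3.41%. The combination against RA at 0.01 uM had 1 member lower (INSIG1) and 0 higher, against 1.92% and 5.06% of loci (protein-coding 0.367% and 4.61%). RA at 1 uM against 0.01 uM had 1 higher (ABCA1) and 0 lower, against 1.93% and 1.68% of loci (protein-coding 0.75% and 0.177%). In the authors' deposited table HMGCS1 and SC4MOL were called lower and SREBF1 higher in the combination against DMSO. SREBF1 and ELOVL6 were called higher at both RA doses, SCD and ABCA1 at 1 uM, and SCD lower in MC_2580. How many of all loci the authors called in these comparisons is not given here, so the members' calls have no share beside them.

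The combination was also set against the sum of its parts, that is its log2 difference from DMSO minus those of MC_2580 alone and RA at 0.01 uM alone. Of the sterol enzymes 15 of 17 lay below the sum, with a median of -0.26, where 44.7% of protein-coding genes lay below it with a median of 0.04. The exceptions were FDFT1 (0.00) and SC5DL (0.05). The fatty acid genes were alike, with 7 of 8 below the sum and a median of -0.27. Of all 34 members 27 lay below it. Of the 57 other genes listed for these pathways, 24 of the 49 with values lay below the sum. LSS had -0.63, MVD -0.56 and DHCR7 -0.52. Outside the sterol enzymes FASN had the lowest value, -0.94, followed by SREBF1 at -0.64 and INSIG1 at -0.62, and ABCA1 had the highest at 0.75. All 3 differences share the DMSO library, and no test was possible with 1 library each.

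**Figure D3:**
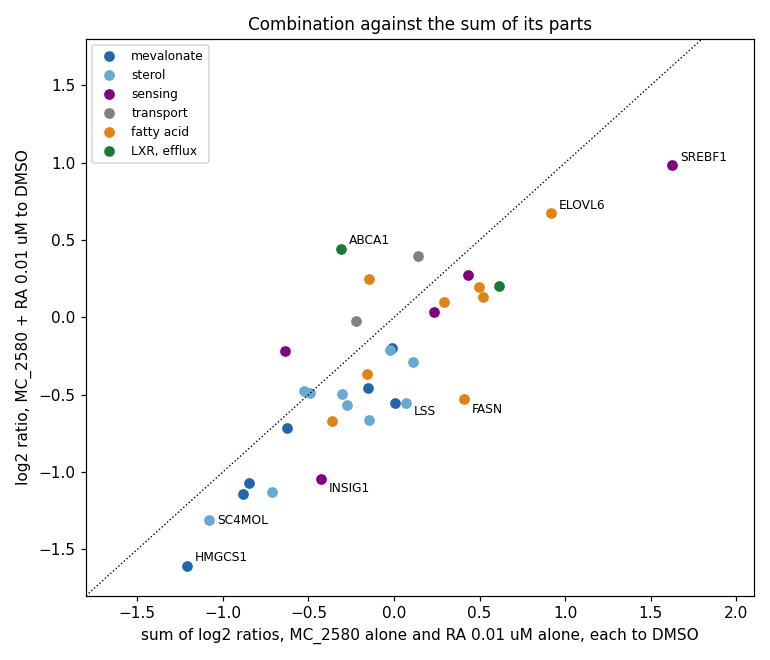
Log2 ratio of the combination to DMSO (y axis) against the sum of the log2 ratios of MC_2580 alone and RA 0.01 uM alone (x axis) for 34 member genes, coloured by role, with the line of equality dotted. Of the 17 sterol enzymes 15 lie below the line, as do 7 of the 8 fatty acid genes. FASN and INSIG1 lie well below it and ABCA1 above it.

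The knockout set shows these genes in cells without drug. Of 35 members tested (ABCG1 was under the 1 FPKM minimum), 33 were lower in LSD1 KO than in WT by mean log2 and 2 were higher (SREBF2 and TM7SF2), against 53.7% of protein-coding genes lower. None passed limma's test over 13157 loci at an adjusted p of 0.05 (smallest 0.314, for LSS), and over all loci 0.0608% passed as higher and 0.0532% as lower. An unadjusted p under 0.05 was found for 5 of 35, against 7.16% of all loci. The 18 sterol enzymes had a median log2 difference of -0.66, with 17 lower, where all loci had -0.02. For 23 of 35 members, 16 of them sterol enzymes, both KO libraries lay below both WT libraries, against 16.1% of loci and 16.9% of protein-coding genes, and SREBF2 lay above, against 17.9% and 18.7%.

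LSS stood at 10.4 and 10.6 FPKM in KO against 23.7 and 19.6 in WT, 2 close pairs well apart (log2 -0.97, SE 0.17). ACAT2 stood at 49.0 and 67.6 FPKM in KO and 152 and 108 in WT (log2 -1.14, SE 0.29, limma adjusted p = 0.521). HMGCS1 had 60.8 and 57.9 FPKM in KO against 191 and 92.1 in WT, so the WT libraries were further from each other than WT 2 was from KO (log2 -1.15, SE 0.41, limma adjusted p = 0.701). HSD17B7, a sterol ketoreductase with a near-identical pseudogene that makes its reads uncertain, had 3.79 and 4.31 FPKM against 15.0 and 7.27. TM7SF2, a sterol reductase, overlapped, with 8.89 and 5.85 FPKM against 8.91 and 4.31.

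The difference was larger against WT 1 than against WT 2. WT 1 was above WT 2 in 16 of 18 sterol enzymes. By replicate number, the sterol enzymes had a median of -1.10 between KO 1 and WT 1, with 18 of 18 lower, and of -0.26 between KO 2 and WT 2, with 17 of 18 lower. Without WT 1 the median over all 35 members was -0.32 in place of -0.58, and without WT 2 that of the sterol enzymes was -1.05. CYP51A1 illustrates this: 19.7 and 18.3 FPKM in KO, 20.9 in WT 2 and 46.1 in WT 1.

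All 8 fatty acid genes were lower in KO by mean log2, with a median of -0.52 and 4 of 8 without overlap (FASN, ELOVL6, SCD and FADS2). FADS2 had 60.0 and 54.2 FPKM in KO against 133 and 89.3 in WT (log2 -0.92, SE 0.27, limma adjusted p = 0.592). ELOVL6 had 2.43 and 2.64 FPKM against 4.84 and 4.01 (log2 -0.62, SE 0.19, limma adjusted p = 0.628). FASN had 27.2 and 45.3 FPKM against 48.2 and 75.5, where the libraries numbered 2 were the higher in both groups. ACACA, ACLY, ACSS2 and FADS1 overlapped.

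Of the sensing genes, INSIG1 had 71.2 and 48.5 FPKM in KO against 184 and 77.8 in WT (log2 -1.01, SE 0.51, limma adjusted p = 0.830), with the same high WT 1 as the enzymes. SREBF1 had 16.2 and 16.7 FPKM against 17.0 and 20.8, and SREBF2 had 42.9 and 43.9 against 42.2 and 40.2, both nearly level. SCAP and INSIG2 overlapped. ABCA1 had 2.68 and 2.73 FPKM in KO against 3.62 and 6.25 in WT (log2 -0.64, SE 0.29, limma adjusted p = 0.791), while MYLIP, STARD4 and NPC1 overlapped.

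**Figure D4:**
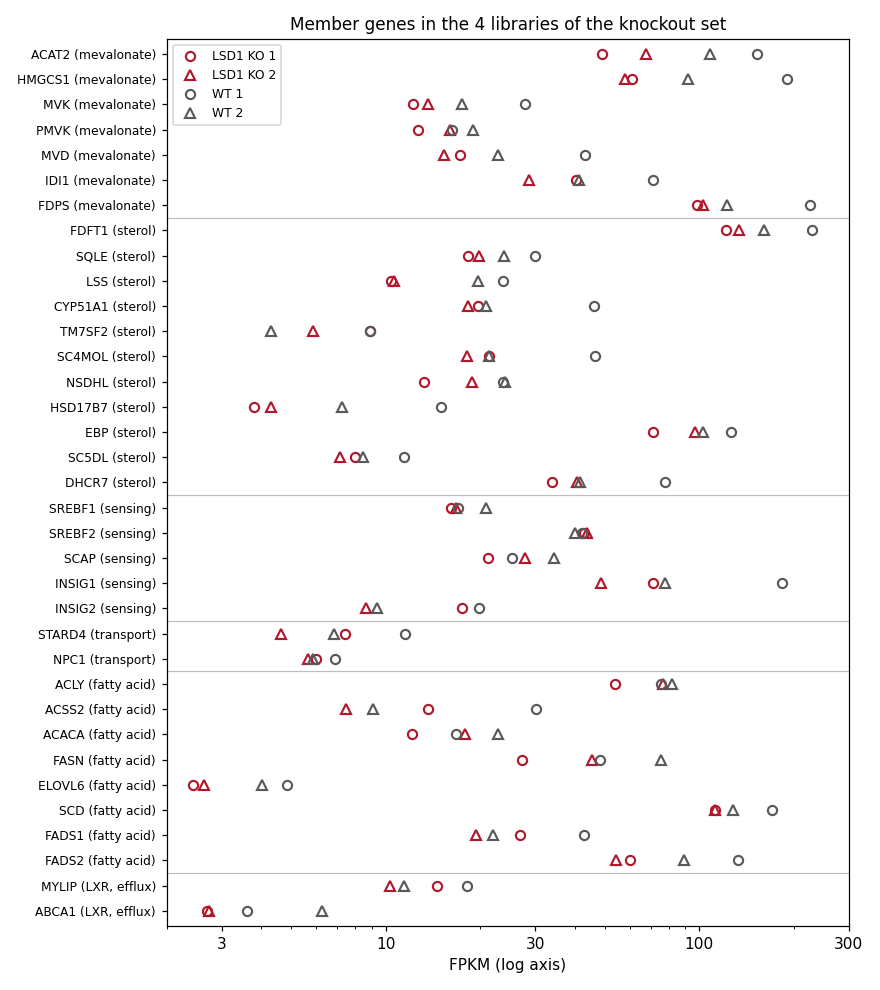
FPKM on a log axis of the 35 member genes tested in the knockout set, 1 row per gene by role, with LSD1 KO in red and WT in grey, circles for replicate 1 and triangles for replicate 2. In most mevalonate and sterol rows both KO symbols lie left of both WT symbols and the WT 1 circle lies furthest right.

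Of 57 other genes listed for these pathways, 51 were tested in the knockout set, 0 passed limma's test over all loci (4 had an unadjusted p under 0.05, a share near that of all loci), and 38 were lower and 13 higher, with a median log2 difference of -0.14. In the combination against DMSO, 49 of the 57 could be compared. TMEM97 (115 to 53.7 FPKM), which takes part in sterol trafficking, and DGAT2 (12.1 to 5.13 FPKM), which makes triglycerides, were lower past 2-fold. The 4 genes higher past 2-fold were ACSL1 (26.5 to 115 FPKM) and ACSL5 (15.3 to 39.0), which activate fatty acids, NPC2 (26.3 to 79.4), a lysosomal sterol carrier, and SOAT1 (12.6 to 36.9), which esterifies cholesterol. At the lower and higher RA dose alone ACSL5 stood at 42.4 and 44.2 FPKM and ACSL1 at 61.2 and 51.6. NPC2 stood there at 44.8 and 55.8 FPKM and SOAT1 at 9.50 and 10.6. In the combination against DMSO, 9.05% of all loci were higher past 2-fold and 4.64% lower (protein-coding 9.37% and 3.43%). The prenyltransferase and coenzyme Q genes moved less, with a median of -0.17 over 6 genes in that comparison. The fatty acid oxidation genes had a median of 0.05 over 9 but ranged from -0.96 to 0.83.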

How the data were processed

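NB4 cells were measured by RNA sequencing in 9 libraries, grouped by the sample labels. Values in both deposited tables are FPKM, computed by the authors, per the file headers; 0.001 FPKM that the authors had added in the knockout table was taken off. Per the submitters' processing notes, the tools were TopHat2 2.0.10, TopHat 1.3.1, CASAVA 1.8, Cuffdiff and Cufflinks on build hg18; annotation and scaling are not given. A treatment value of 0 from a test marked as failed was taken as missing (1039 loci, HSD17B7 among them), as was 1 knockout locus. Locus starts count from 0, so 1 was added.

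For KO against WT, log2(FPKM + 1) of the 13157 loci whose mean reached 1 FPKM in either group was fitted in R 4.3.3 by limma 3.58.1 with a trend, and p-values were adjusted by Benjamini-Hochberg (threshold 0.05). Treatments, with 1 library each, were described by log2 ratios of FPKM + 1 where 1 of the 2 libraries had at least 1 FPKM, and called at 2-fold. Every member was named, and other pathway genes past a threshold, of which 1 result is not reported here. The 36 members and all lists were chosen with earlier results of these data known. Protein-coding genes were those with 1 locus by RefSeq name. limma was tested on simulated data. Alternatives were other pseudocounts, filters, scaling, a replicate block, leaving out each library, other fold limits and the authors' deposited calls. Other steps used matplotlib 3.10.9, numpy 2.4.6, pandas 2.3.3 and Python 3.11.15.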

Additional observations from a re-analysis of the deposited data

How the results depend on the processing

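The count of loci past limma's threshold in the knockout set (8 higher, 7 lower) depended on the fit: 23 and 15 with a pseudocount of 0.1 FPKM, 0 and 0 with no filter, 2 higher with a minimum of 5 FPKM, 43 and 16 among protein-coding genes with 1 locus, and 0 and 0 with any 1 library left out. No member passed in any of these fits. With replicate number as a block, 0 loci passed higher and 0 lower. Yet 3198 of 13157 loci then had an unadjusted limma p under 0.05, against 942 without the block. Same-numbered libraries deviated together (r = 0.855 across 9984 protein-coding genes, which are not independent). Nothing says what a number marks, so it was not treated as pairing. The authors' deposited calls, 1 library against 1, gave 71 higher and 46 lower for number 1, with 1 member lower (HMGCS1), and 61 and 35 for number 2.

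Leaving out each library in turn gave medians from -0.73 to -0.32 for all members (-0.58 with all libraries), -1.05 to -0.32 for the sterol enzymes (-0.66), -1.17 to -0.41 for the mevalonate enzymes (-0.73), -0.84 to -0.31 for the enzymes after squalene (-0.58), all with the higher end without WT 1 and the lower without WT 2, and -0.32 without WT 1 to -0.060 without WT 2 for the sensing genes (-0.18). The LXR and export median (-0.43, 2 genes) was -0.22 with no filter and with a minimum of 5 FPKM, and its count lower (2) was 1 with that minimum and without WT 1 or KO 2. Single genes that changed sign, none of which had passed, ranged from -0.27 to 0.63 for TM7SF2, -0.65 to 0.36 for INSIG2, -1.48 to 0.14 for ACSS2, -0.88 to 0.050 for FADS1 and -0.53 to 0.094 for MYLIP. Sign changes came without WT 1 for all but TM7SF2 (without WT 2 or KO 1, -0.08), and also without KO 2 for INSIG2 (0.33) and MYLIP (0.01).

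In the treatments, a 1.5-fold limit gave members lower or higher as follows: MC_2580 0 of either, RA at 0.01 uM 1 lower and 3 higher, RA at 1 uM 1 lower and 7 higher, the combination 9 lower and 2 higher, the combination against RA at 0.01 uM 12 lower and 1 higher, and RA at 1 uM against 0.01 uM 0 lower and 3 higher. The share of all loci at 1.5-fold is not given here, so these counts show only their dependence on the limit. At 4-fold on the FPKM + 1 scale every such count was 0; ABCA1, 4.61-fold higher at RA 1 uM than at 0.01 uM in FPKM, had 1.89 (log2) on that scale. With a pseudocount of 0.1 FPKM, or with protein-coding genes centred at 0, SREBF1 was the 1 member higher in the combination. The authors' calls gave 1 lower in MC_2580, 1 higher and 2 lower in the combination, 0 lower against RA at 0.01 uM and 2 higher for RA at 1 uM against 0.01 uM. The share of all loci that the authors called in the treatments is not given here. The LXR and export median moved from 0.10 to 0.31 for MC_2580 and from 0.05 to 0.30 for RA at 0.01 uM with a minimum of 5 FPKM, and from 1.34 to 1.47 for RA at 1 uM and from 1.29 to 1.44 between RA doses with a pseudocount of 0.1 FPKM. Centring moved the sensing median from 0.07 to 0.13 at RA 0.01 uM and from -0.20 to -0.27 against the sum. With only the 250 bases before the start, 1 sterol enzyme promoter held an E-box, not 2. Causes of these changes were not tested. Read totals were not given, so how far depth limits ABCA1, ELOVL6 and other low genes is unknown.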
